A study of Mus musculus with 2 samples.

Results

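The top-scoring pericentral hepatocytes were the 10% of hepatocytes with the highest ratio of pericentral to periportal transcripts in livers of p16-Tom mice after 4 weeks of repeated carbon tetrachloride (CCl4), a toxin that hepatocytes next to the central vein convert to its reactive form. A score was computed for each cell as the log2 of the summed unique molecular identifiers (UMIs, single counted transcripts) of the pericentral genes Glul, Oat, Cyp2e1 and Gulo plus 1, divided by those of the periportal genes Cyp2f2, Hal, Sds and Aldh1b1 plus 1. Ranking 26683 hepatocytes of both libraries together gave 2674 members, 10.02% of them, of which 384 came from the Tom- library and 2290 from the Tom+ library. The 2 libraries held 39559 barcodes in all. A hepatocyte was a cell with 2000 to 10000 detected genes, at most 100000 UMIs, a mitochondrial fraction of at most 0.05 and at most 2 UMIs in all of the leukocyte, endothelial and fibroblast genes Ptprc, Pecam1 and Dcn.

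The mice were male C57BL/6 animals, heterozygous for both transgenes, in which the p16 promoter drives CreERT2 and tamoxifen lets the recombinase switch on a tdTomato reporter at the Rosa26 locus. Both groups therefore carry the same alleles and had the same CCl4 and tamoxifen treatment, and they are told apart only by the reporter: liver tissue was fixed and dissociated, and hepatocytes taken as Hoechst and MitoBrilliant 646 positive particles were sorted into Tom+ and Tom- fractions. Reporter labelling records past activity of the p16 promoter in cells that tamoxifen reached, and not the p16 transcript at the time of fixation. There was 1 library per fraction, the number of mice behind each is not given in the sources used here and cells carry no animal label, so no test between fractions was possible. All intervals below are 95% intervals that cover counting error only.

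Hepatocytes are arranged along the liver lobule from the portal tract, where blood enters, to the central vein, where it leaves. Wnt ligands and R-spondins from the central vein endothelium keep beta-catenin active in the adjoining hepatocytes, and these cells carry glutamine synthetase (Glul), the glutamate transporter Slc1a2 and drug-oxidising cytochrome P450 enzymes. Periportal hepatocytes carry instead the enzymes of the urea cycle, of amino acid breakdown and of glucose production.

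Slc1a2, which takes up glutamate, led the genes outside the score in the comparison of members with other hepatocytes, and Sp5 encodes a transcription factor that is itself a target of beta-catenin. Their promoters are shown because both genes were higher in members in both libraries and both windows hold the letters CTTTGA, the core of the site that TCF and LEF factors recognise. The windows run from 250 bases before to 50 bases after the RefSeq start on GRCm38.p6, both on the plus strand. Capitals mark CTTTGA or, on the other strand, TCAAAG.
Slc1a2, chr2:102706188-102706487: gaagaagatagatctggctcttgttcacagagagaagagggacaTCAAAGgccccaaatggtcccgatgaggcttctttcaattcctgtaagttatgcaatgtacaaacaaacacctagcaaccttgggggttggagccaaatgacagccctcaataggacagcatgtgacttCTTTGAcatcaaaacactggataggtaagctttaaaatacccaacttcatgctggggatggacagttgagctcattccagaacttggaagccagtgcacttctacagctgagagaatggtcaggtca
Sp5, chr2:70474673-70474972: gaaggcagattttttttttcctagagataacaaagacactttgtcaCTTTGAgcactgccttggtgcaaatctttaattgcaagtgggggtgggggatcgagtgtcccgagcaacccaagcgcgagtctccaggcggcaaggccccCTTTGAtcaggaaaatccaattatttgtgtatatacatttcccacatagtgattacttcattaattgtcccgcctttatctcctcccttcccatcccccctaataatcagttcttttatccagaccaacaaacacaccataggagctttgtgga

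The Slc1a2 window held 1 match on each strand and the Sp5 window 2 on the plus strand. The annotated start used for Slc1a2 lies inside the longer gene model of GENCODE, which spans positions 102658659 to 102790784 of chromosome 2. Of all 32851 RefSeq promoters, 16.0% held the letters on either strand. Among the 12 genes named below as higher in members, 7 had a promoter in the table and 3 of their 8 promoters held a match (Slc1a2, Gstm3 and Tnfrsf19). Among the 12 named as lower, 2 of 12 promoters held one (Aspg and Mfsd2a). A match is a description of the letters in this window and no evidence of binding.

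Members made up 2.39% of the Tom- hepatocytes (384 of 16083, exact binomial interval 2.16 to 2.64) and 21.6% of the Tom+ hepatocytes (2290 of 10600, 20.8 to 22.4), a ratio of 9.05. Of all members, 85.6% were Tom+. Shares and ratio apply only to this cut and depth. Scored on cells thinned to 5000 UMIs, members were 3.79% of Tom- and 19.8% of Tom+ hepatocytes, which lie closer together. Over the alternatives the Tom- share ran from 0.92% (top 5%) to 10.0% (each library ranked on its own). The Tom+ share ran from 10.1% (each library ranked on its own) to 38.6% (top 20%). The share of Tom+ hepatocytes climbed from 3.32% in the fifth decile of the ranking to 17.0% in the ninth and 21.6% in the top decile, whereas the share of Tom- hepatocytes declined from 14.4% in the fifth decile to 5.34% in the ninth. Toward the portal end the Tom+ share had another rise, to 10.75% in decile 3, where the Tom- share was 9.41%. The sort and the number of particles loaded set how many cells each library holds, so these shares compare the make-up of the fractions and not the abundance of Tom+ cells in the liver.

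**Figure D1:**
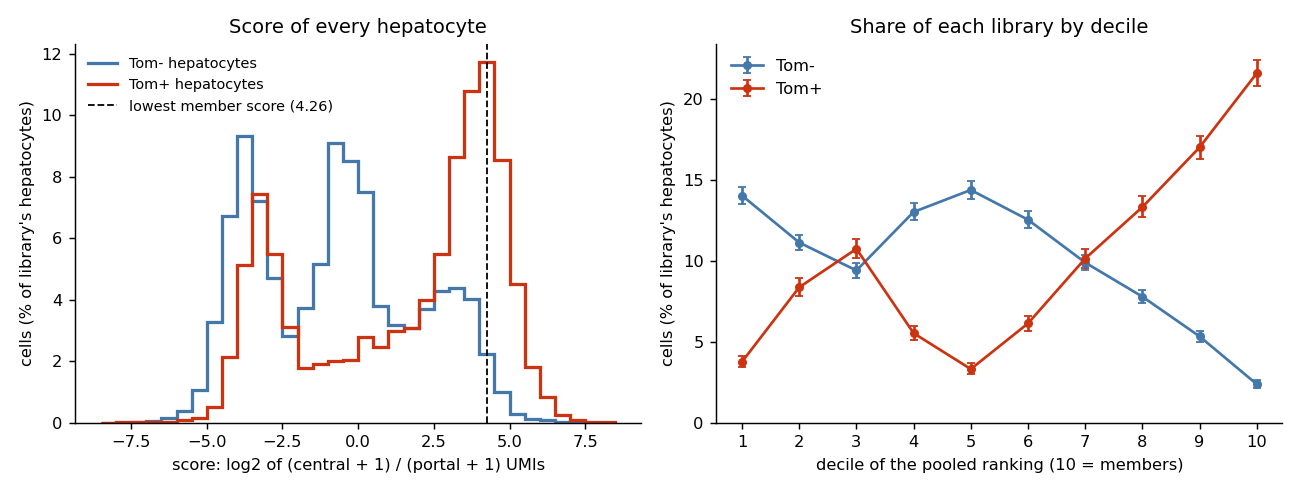
Left, the distribution of the score (log2 of pericentral plus 1 over periportal plus 1 UMIs) in each library as a percent of its hepatocytes, with the lowest member score marked; right, the percent of each library's hepatocytes in each decile of the pooled ranking, with exact binomial intervals. The top decile holds 21.6% of Tom+ and 2.39% of Tom- hepatocytes, and the curves cross more than once.

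The lowest member score was 4.26, a ratio of 19.2, and the score is continuous across it: 618 hepatocytes lay within 0.1 of the boundary. The 100 cells just inside had a median of 144.5 pericentral and 6.5 periportal UMIs, and the 100 just outside had 187 and 9. Their median total counts were 31307 and 36822.5 UMIs. Members are thus a range of a gradient and not a separate class.

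Member cells were well covered. Their median count was 34108.5 UMIs in the Tom- and 36175.5 UMIs in the Tom+ library, against 24339 and 32122 UMIs in the other hepatocytes and 32011 and 32354 in the next decile of the ranking. Median detected genes were 5880 and 6010, and median mitochondrial shares were 1.49% and 1.63%. The summed member counts, 13967123 and 92509117 UMIs, set the precision of all levels below, which are given as CPM (counts scaled to the same total of UMIs in each sum). In all, 503 barcodes occurred in both libraries, and these included 11 Tom- and 68 Tom+ members. Removing them changed no gene count below by 1.5 times or more.

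Members were chosen by the UMIs of the 8 score genes, so the levels of these genes describe the choice and support nothing. Cyp2e1, the P450 enzyme that activates CCl4, stood at 4084 CPM in Tom- and 4011 CPM in Tom+ members, against 1072 and 1541 CPM in other hepatocytes. Gulo, the last enzyme of ascorbate synthesis, stood at 1154 and 1165 CPM. Both were found in every member, with medians of 130.5 and 139 UMIs per cell for Cyp2e1 and 37 and 39 UMIs for Gulo. These 2 genes supplied most pericentral UMIs.

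Glul and Oat, which make glutamine and interconvert ornithine and glutamate, were weaker and more uneven. Glul was at 223.5 CPM in Tom- and 336.3 CPM in Tom+ members, against 33.7 and 62.8 CPM elsewhere. A Glul UMI was seen in 78.9% of Tom- and 87.4% of Tom+ members, with medians of 3 and 5 UMIs per cell and 90th percentiles of 22.7 and 38 UMIs. Oat was at 197.8 and 350.2 CPM in members. On the portal side, the serine dehydratase Sds was at 106.6 CPM in Tom- and 92.6 CPM in Tom+ members against 1414 and 1116 CPM in the others, and the histidine ammonia-lyase Hal was at 43.5 and 37.5 against 572 and 435.6 CPM.

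Of the 5 markers proposed for hepatocytes nearest the central vein, Glul, Oat and Cyp2e1 entered the score and Lgr5 and Slc1a2 did not. The label was met in part. Slc1a2 was higher in members than in other hepatocytes in both libraries, yet 50.0% of Tom- and 39.0% of Tom+ members had no Slc1a2 UMI. With each cell thinned to 5000 UMIs, a Slc1a2 UMI was found in 30.5% of Tom- and 38.8% of Tom+ members, against 1.26% and 3.76% of cells in the lowest 3 deciles of the ranking, where the gene is taken as background. At the same depth, Glul was found in 47.1% (42.1 to 52.3) and 54.0% (52.0 to 56.1) of members against 4.06% and 6.49% at the portal end. Lgr5, the R-spondin receptor, was found in 19.8% and 21.8% of members against 0.83% and 1.24%. In the next decile of the ranking, Glul was found in 36.6% and 39.3%, Slc1a2 in 28.2% and 25.4% and Lgr5 in 19.2% and 16.4% of cells. Glul entered the score, so its difference between members and next decile describes the choice. For Slc1a2 and Lgr5 the counting intervals of members and next decile were apart in the Tom+ library. In the Tom- library those of Slc1a2 overlapped, at 25.9 to 35.3 and 25.2 to 31.3, and Lgr5 was nearly level. These intervals count cells of a single library and are no test. The cells are called members here rather than central vein hepatocytes for this reason.

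**Figure D2:**
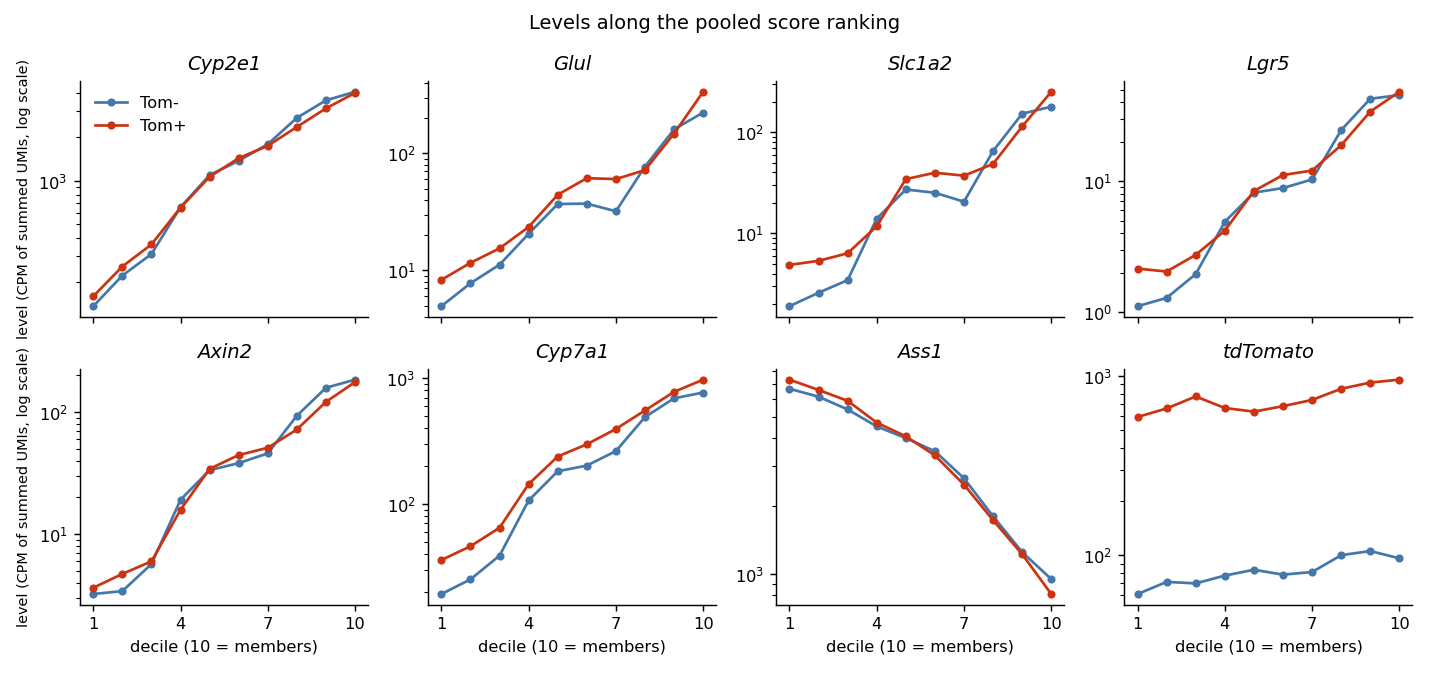
Level of 8 genes (CPM of summed UMIs, log axis) in each decile of the pooled score ranking, 1 being the most periportal and 10 the members, for Tom- and Tom+ hepatocytes. Axin2, Lgr5 and Slc1a2 rise toward decile 10, where Slc1a2 is at 178.8 CPM in Tom- and 251.1 CPM in Tom+ cells, Ass1 declines, and the tdTomato lines stay apart in every decile.

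Members were then compared with the other hepatocytes of the same library. Leaving out the score genes, 118 of 7906 genes compared were 2-fold or more higher in Tom- members (1.49%) and 130 were lower (1.64%). In the Tom+ library 70 of 7953 genes were higher (0.88%) and 84 lower (1.06%). The same direction past 2-fold was seen in both libraries for 64 of 7804 genes upward (0.82%) and 78 downward (0.999%). The other Tom+ hepatocytes were themselves more pericentral, with a median score of 2.78 over all Tom+ and -0.70 over all Tom- hepatocytes. Since genes that follow the same gradient as the score had to differ, these contrasts describe the members and carry no test.

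Slc1a2 was 6.91-fold higher in Tom- members (178.8 against 25.9 CPM) and 5.71-fold higher in Tom+ members (251.1 against 44.0 CPM). Rhbg, an ammonium transporter, followed with 39.7 against 6.68 CPM and 50.4 against 11.1 CPM. Slc13a3, which carries dicarboxylates, stood at 153.1 against 27.7 CPM in Tom- and 180.1 against 49.9 CPM in Tom+ cells. Other solute carriers among the 12 leading genes were the neutral amino acid transporters Slc1a4, with log2 ratios of 2.08 in Tom- and 1.64 in Tom+ cells, and Slc1a5, with 2.11 and 1.56. All 5 of these genes encode membrane transporters.

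Lgr5 was at 45.4 CPM in Tom- and 48.1 CPM in Tom+ members, against 8.92 and 14.0 CPM in other hepatocytes. Axin2, which holds the beta-catenin destruction complex together and is itself a Wnt target, was at 184.4 and 176.0 CPM against 34.5 and 51.2 CPM. The remaining leading genes were the phosphatase Lhpp (log2 ratios of 2.23 and 1.81), the ferritin receptor Scara5 (2.11 and 1.60), the TNF receptor family member Tnfrsf19 (2.20 and 1.59), the P450 enzyme Cyp2c55 (2.24 and 1.58) and the glutathione transferase Gstm3 (2.28 and 1.52). All 12 were higher in both libraries by the rule that named them. Scara5 in both libraries, and Rhbg and Lgr5 in the Tom- library, reached the 10 CPM minimum only through the member sum. Naming asked for 20 CPM in either sum. Rhbg, Lgr5, Scara5, Slc1a4 and Tnfrsf19 in both libraries, and Lhpp and Cyp2c55 in the Tom- library, met it only through the member sum.

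The 12 genes furthest below the other hepatocytes included Aspg, Gls2 and Etnppl. Aspg, an asparaginase, was at 33.1 CPM in Tom- and 25.8 CPM in Tom+ members against 397 and 320 CPM. Gls2, the liver glutaminase that releases ammonium from glutamine, was at 28.7 and 26.3 against 205.2 and 186.5 CPM. Etnppl, which breaks down phosphoethanolamine, was at 17.6 and 12.3 against 169 and 134.9 CPM. All 3 lay well below the 2-fold line in both libraries. Etnppl met the 20 CPM asked for naming only through the other hepatocytes.

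The other 9 were Myo15b, Obp2a, Sdsl, Ptgds, A1bg, Tsen54, Mfsd2a, Cryl1 and Hsd17b6, with log2 ratios between -3.68 and -2.71 in the Tom- library and between -3.49 and -2.78 in the Tom+ library. Ptgds, a prostaglandin D2 synthase, was the most abundant of them, at 65.9 and 47.2 CPM in members against 513.4 and 364.9 CPM. Myo15b, Obp2a, Sdsl, Mfsd2a, Cryl1 and Hsd17b6 were below 10 CPM in members of both libraries and were compared only through the other hepatocytes.

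**Figure D3:**
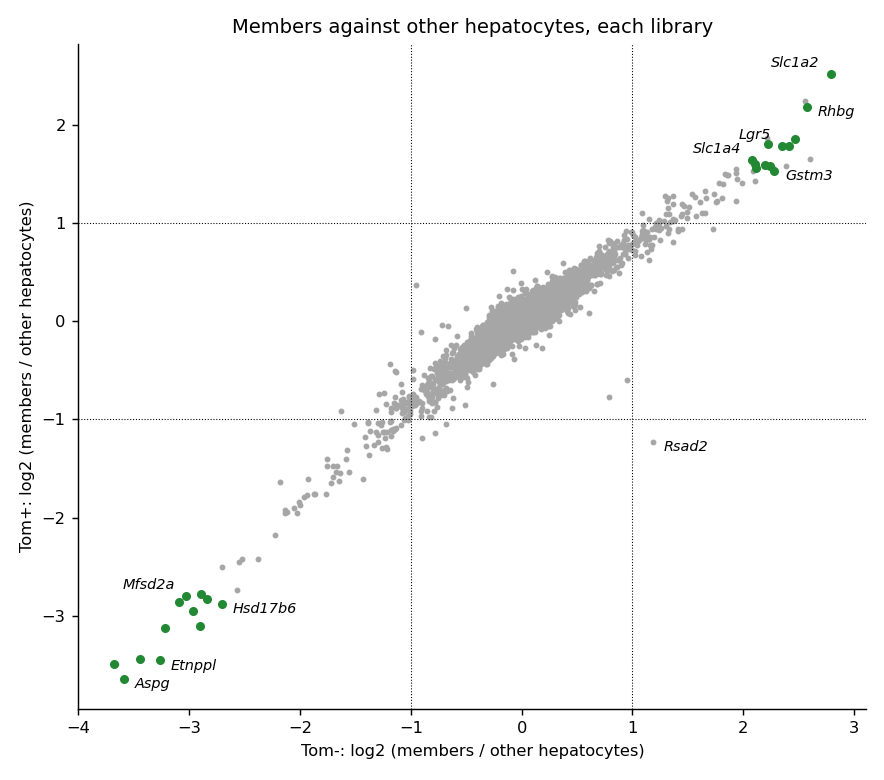
Each point is a gene, placed by its log2 ratio of members over other hepatocytes in the Tom- library (horizontal) and the Tom+ library (vertical); dotted lines mark 2-fold and green points the 24 named genes. The 24, named for large ratios of the same sign in both libraries, lie toward the upper right and lower left. Those higher in members had the larger ratio in the Tom- library, Slc1a2 at 2.79 and 2.51. Rsad2 is above 0 in Tom- and below 0 in Tom+ cells. A single Tom- member held 257 of the 371 Rsad2 UMIs of Tom- members.

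Gene lists described the same contrast by function. In both libraries 15 of 21 pericentral genes outside the score were 2-fold higher and none lower, with median log2 ratios of 1.82 in Tom- and 1.40 in Tom+ cells against 0.07 and 0.09 over all genes compared. Sp5 in both libraries, and Rhbg and Lgr5 in the Tom- library, entered this count only through the member sum, so the count is a description. Cyp7a1, the rate-limiting enzyme of bile acid synthesis, was at 768.8 CPM in Tom- and 974.3 CPM in Tom+ members against 178.6 and 361.8 CPM. Cyp1a2, a P450 enzyme of drug oxidation, was at 901.4 and 1012 against 255.3 and 383.7 CPM. Cyp7a1 was the only one of 15 genes of bile acid synthesis and transport past 2-fold in both libraries.

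Of the periportal list, 11 of 18 genes were 2-fold lower in both libraries and none higher, with medians of -1.48 and -1.35. Cdh1, below 10 CPM in members, was compared only through the other hepatocytes. In the urea cycle 3 of 8 genes were lower (Ass1, Asl and Arg1). Ass1, which joins citrulline to aspartate, was at 944.1 CPM in Tom- and 810.1 CPM in Tom+ members against 4420 and 3649 CPM. Cps1, the entry enzyme of the cycle, was at 939.6 and 1011 against 1804 and 1802 CPM and did not reach 2-fold. Pck1, of glucose production, was lower (2885 and 2403 against 6451 and 5144 CPM) and was the only such gene of 14 in the glucose list.

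Of 12 genes of the Wnt target and feedback list, 6 were 2-fold higher in both libraries (Lgr5, Axin2, Tbx3, Sp5, Notum and Rnf43), with list medians of 1.27 and 1.04. Notum, a secreted Wnt deacylase, was at 197.8 CPM in Tom- and 204.0 CPM in Tom+ members against 63.0 and 81.2 CPM. Sp5 was low, at 10.2 and 12.3 against 1.75 and 2.60 CPM, and was compared only because the member sums reached 10 CPM, as was Lgr5 in the Tom- library. Of 8 receptors for Wnt and R-spondin, Lgr5 was the only one past 2-fold in both libraries.

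In glutamine and ammonia handling, 4 of 13 genes were higher in both libraries (Rhbg, Slc1a2, Slc1a4 and Slc7a5) and 2 lower (Gls2 and Got1, a transaminase), and the medians were -0.01 and 0.00. Slc7a5 in both libraries, and Rhbg in the Tom- library, reached 10 CPM in members only. In the P450 list 4 of 21 were higher (Cyp1a2, Cyp2c29, Cyp2c37 and Cyp2c55) and in the glutathione list 3 of 21 (Gstm1, Gstm2 and Gstm3). Probes of such close relatives can catch one another's transcripts, so single members of the Cyp2c and Gstm families are uncertain.

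Over the lipogenesis list the median log2 ratios were -0.22 in Tom- and -0.13 in Tom+ cells, with 6 and 9 of 22 genes above 0, and over fatty acid oxidation and ketogenesis they were 0.23 and 0.24, with 13 and 14 of 16 above 0. The medians over all genes were 0.07 and 0.09. Acly and Scd1, enzymes of fatty acid synthesis, were 2-fold lower among 22 lipogenesis genes, at 175 and 181 CPM for Acly against 523.3 and 448.4 CPM. Pdk4, which restrains pyruvate oxidation, was the only gene of 16 of fatty acid oxidation that was higher, at 37.4 and 40.7 against 12.9 and 16.6 CPM. No gene passed 2-fold in both libraries in the cholesterol (19 compared), respiratory chain (19), hypoxia (12), p53 target (12) or xenobiotic receptor (10) lists.

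Among the cyclin-dependent kinase inhibitors, Cdkn1c (p57) was the one of 4 compared that was 2-fold higher, at 99.3 CPM in Tom- and 108.5 CPM in Tom+ members against 25.9 and 38.1 CPM. Cdkn1a (p21) was at 85.6 and 78.1 CPM in members. Cdkn2a, the gene that encodes p16, was almost not seen: 5 UMIs in all Tom- members and 9 in all Tom+ members, 0.36 and 0.10 CPM. A separate feature, labelled with an Ensembl gene identifier and p16, had 5 and 45 UMIs, 0.36 and 0.49 CPM. Its target sequence is not given in the sources used here. These counts were too few for a reading of p16 in member cells, and why they were few was not tested.

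Members and the next decile of the ranking were much alike. In the Tom- library 4 of 7846 genes were 2-fold higher in members (0.051%), the interferon-response genes Cxcl10, Rsad2, Cmpk2 and Ifit3, and 0 were lower. In the Tom+ library 1 of 7910 was higher (0.0126%), Slc1a2, and 1 was lower, Aspg. The median log2 ratio of the pericentral list was 0.15 in Tom- and 0.38 in Tom+ cells. Leaving the next decile for the top decile, Slc1a2 went from 152.4 to 178.8 CPM in Tom- and from 114.0 to 251.1 CPM in Tom+ cells.

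Tom+ and Tom- members were compared next, which asks how cells labelled through the p16 promoter differ from unlabelled cells within the top decile. The groups were not at the same place within it: the median score was 4.76 in Tom+ and 4.59 in Tom- members, and 51.9% of Tom+ but 38.5% of Tom- members lay above the median member score. The reporter itself was at 96.4 CPM in Tom- and 957.2 CPM in Tom+ members, a log2 ratio of 3.31 (exact interval 3.23 to 3.39). Per cell the median was 82.9 CPM in Tom- members (10th and 90th percentiles 0 and 214.2) and 951.4 CPM in Tom+ members (364.9 and 1859). The highest Tom- member, at 1657 CPM, lay inside the Tom+ range, so the fractions overlapped in reporter transcript. The ratio was 3.12 in the next decile and 3.31 in all other hepatocytes.

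With the score genes and tdTomato included, 6 of 7935 genes were 2-fold higher in Tom+ members (0.0756%) and 5 were lower (0.063%). In the next decile these counts were 4 (0.0505%) and 1 (0.0126%) of 7918, and in the other hepatocytes 7 (0.0891%) and 1 (0.0127%) of 7860. The median log2 ratio over all genes was 0.03 in members. The 5 higher genes other than tdTomato were below 10 CPM in Tom- members, and the lower genes other than Fos were below 10 CPM in Tom+ members. They were compared only through the group in which they were high, so these counts are a description and support no comparison between deciles. With a minimum of 50 CPM, tdTomato was the 1 gene higher and Fos the 1 lower.

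The genes higher in Tom+ members, apart from the reporter, included Dbp and Per3 of the circadian clock. Dbp, a clock output factor, was at 4.94 CPM in Tom- and 24.4 CPM in Tom+ members, with a log2 ratio of 2.30 (1.96 to 2.67). Per3, a clock repressor, was at 8.31 and 20.7 CPM, a ratio of 1.32 (1.05 to 1.60). Both were higher in Tom+ cells of the next decile too, at 1.804 and 1.06. Both reached the 10 CPM minimum only through the Tom+ sum of members. They were the 2 past 2-fold of 15 clock genes compared, and the list median was 0.14. Time of day of the collections is not given in the sources used here, and its part in this difference was not tested.

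The other genes past 2-fold were H2-Q1, a class I histocompatibility gene, at 4.22 CPM in Tom- and 12.4 CPM in Tom+ members (log2 ratio 1.56, 1.18 to 1.96), Mfge8, a secreted bridge in the clearance of dying cells, at 9.24 and 19.5 CPM (1.08, 0.82 to 1.35), and Gpnmb, a lysosomal membrane glycoprotein, at 5.37 and 11.03 CPM (1.04, 0.70 to 1.40). The 5 cells with most Gpnmb held 48% of its UMIs in Tom- and 33.6% in Tom+ members, so few cells set its level. Its ratio was 0.30 (0.10 to 0.51) in the next decile and 0.28 among members with 5 or more Slc1a2 UMIs, and Tom+ cells were below Tom- cells in deciles 6, 5 and 4 (-1.26, -1.98 and -1.38). In the next decile H2-Q1 was at 1.13 and Mfge8 at 0.92. All 3 genes were below 10 CPM in Tom- members and were compared only through the Tom+ sum. H2-Q1 belongs to a family of near copies and is uncertain.

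The next 5 genes in the named order did not reach the call: Snhg11, a long non-coding RNA (1.00), Hmgn1, a chromatin protein (0.96), the carboxylesterase Ces2c (0.93), the clock repressor Per2 (0.91) and the mitochondrial folate enzyme Aldh1l2 (0.90). Ces2c was the most abundant of these, at 38.5 CPM in Tom- and 73.6 CPM in Tom+ members, and was also higher in Tom+ cells of the next decile, at 0.62. Snhg11 and Aldh1l2 reached 10 CPM only in the Tom+ sum.

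The genes lower in Tom+ members were the 4 interferon-response genes and Fos. Cxcl10, a chemokine, was at 12.1 CPM in Tom- and 2.96 CPM in Tom+ members, a log2 ratio of -2.03, Rsad2, an antiviral enzyme, at 26.6 and 6.70 CPM (-1.99), Cmpk2, a mitochondrial nucleotide kinase, at 17.4 and 6.09 CPM (-1.52) and Ifit3, an antiviral RNA-binding family member, at 20.8 and 7.58 CPM (-1.45). A single Tom- cell carried most of this: 127 of 169 Cxcl10 UMIs, 257 of 371 Rsad2 UMIs, 123 of 243 Cmpk2 UMIs and 159 of 290 Ifit3 UMIs. Without that cell the Tom- members stood at 3.02, 8.19, 8.62 and 9.41 CPM, still above the Tom+ values but within 2-fold of them. The 2-fold calls of these genes rested on that 1 cell, here and against the next decile. Over the interferon list 17 genes were compared in members, some of them only through the Tom- sum that this cell raised, and the median was -0.24. Without the 5 highest cells of each gene it was -0.07.

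Fos, an immediate early transcription factor, was at 52.3 CPM in Tom- and 18.0 CPM in Tom+ members, a log2 ratio of -1.54 (-1.67 to -1.41). A Fos UMI was seen in 31.8% of Tom- and 20.2% of Tom+ members, and the 5 cells with most held 42.7% of the Tom- UMIs. Without the 5 highest cells of each library the ratio was -1.02. It was also lower in Tom+ cells of the next decile (-1.17) and of the other hepatocytes (-1.02). Of 10 immediate early genes compared, 2 had a ratio above 0 and the median was -0.19, and Jun was at 91.5 and 79.4 CPM.

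Genes of liver sinusoidal endothelial cells made up the 3 next lowest: Clec4g at 14.4 CPM in Tom- and 8.09 CPM in Tom+ members (-0.83), Stab2 at 14.0 and 8.58 CPM (-0.71) and Dnase1l3 at 20.3 and 12.6 CPM (-0.68). The 14 endothelial markers summed to 86.3 CPM in Tom- and 63.2 CPM in Tom+ members, against 149.8 and 102.8 CPM in other hepatocytes. Clec4g and Stab2 reached the 10 CPM minimum only through the Tom- sum. Macrophage and leukocyte markers summed to 253.8 and 213.9 CPM, stellate and fibroblast markers to 93.7 and 86.6 CPM and cholangiocyte markers to 3.22 and 2.74 CPM. The cholangiocyte marker Krt19 was at 0 UMIs in Tom- and 4 UMIs in Tom+ members. No endothelial or macrophage marker was at 0, while 1 stellate marker in Tom- members and 3 cholangiocyte markers in Tom- and 1 in Tom+ members were. All 4 sums were lower in Tom+ members, and the part of such RNA from other cells in the differences above was not tested. Npas2, a clock factor, and Kbtbd8, a ubiquitin ligase adaptor, both at -0.64 and both at 10 CPM or more only in the Tom- sum, completed the 10 lowest.

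**Figure D4:**
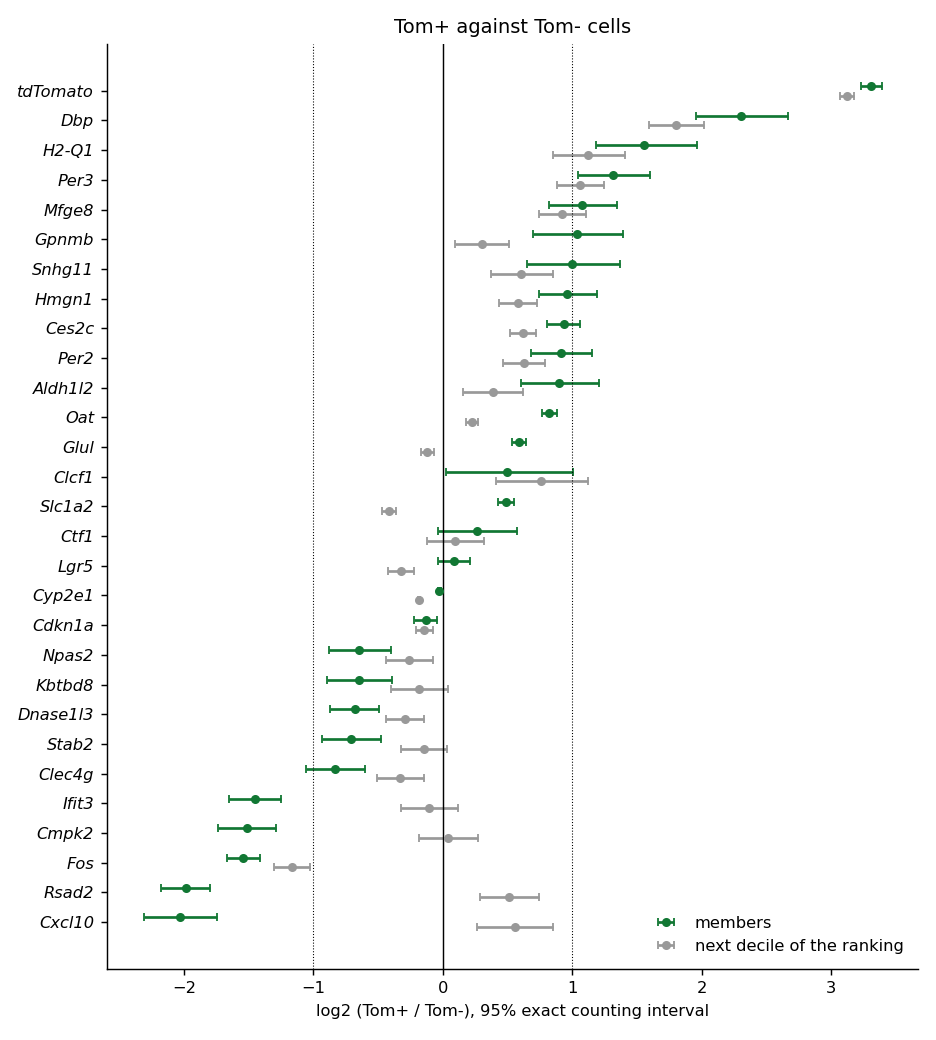
Log2 ratio of Tom+ over Tom- summed levels for tdTomato, the named genes and genes fixed for the question, in members (green) and in the next decile of the ranking (grey), with 95% exact counting intervals; dotted lines mark 2-fold. Slc1a2 and Glul lie above 0 in members (0.49 and 0.59) and below 0 in the next decile (-0.42 and -0.12).

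Slc1a2, which the score did not use, was higher in Tom+ members, with a log2 ratio of 0.49 (0.43 to 0.55). With Tom- members weighted to the scores of Tom+ members it was 0.42, and with each library ranked on its own, which takes Tom- members from lower scores, 1.12. Among members with 5 or more Slc1a2 UMIs, a class set by the gene itself, the Slc1a2 ratio was 0.11. In the next decile the Slc1a2 ratio was -0.42, so Tom+ cells were below Tom- cells there and above them in the top decile. The score genes Oat and Glul chose the members, so their ratios of 0.82 and 0.59 are given as a description only. Ranked library by library, these were 1.48 and 1.42. Lgr5, Axin2 and Cyp2e1 were at 0.08 (-0.04 to 0.21), -0.07 and -0.03 in members, and Lgr5 was at -0.04 in the top 20% and 0.43 with each library ranked on its own. In the pericentral list 16 of 21 genes were above 0 in members, with a median of 0.17, against -0.14 in the next decile and 0.58 in the other hepatocytes.

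A list of genes followed by qPCR in the study was chosen in part on these samples and is no independent evidence of direction. Of its 11 genes, 8 could be compared in members, of which Anxa2, a membrane-binding protein, reached the 10 CPM minimum only through the Tom+ sum (9.81 and 15.2 CPM). None of the 8 was past 2-fold. The log2 ratios of the other 7 lay between 0.13 and 0.56. Gstm1, a glutathione transferase, was at 493.9 CPM in Tom- and 681.7 CPM in Tom+ members (0.46), Cd63, a vesicle membrane protein, at 79.5 and 117.4 CPM (0.56) and Cdkn1c at 99.3 and 108.5 CPM (0.13).

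Ctf1, Clcf1 and Lif, ligands of interest to the study, were below the 10 CPM minimum in members. Ctf1 had 100 UMIs in Tom- and 794 in Tom+ members, and Clcf1 had 40 and 374, so only Lif was near the limit of detection. Ctf1 was at 7.16 CPM in Tom- and 8.58 CPM in Tom+ members (log2 ratio 0.26, -0.04 to 0.58). Clcf1 was at 2.86 and 4.04 CPM (0.50, 0.03 to 1.01), and at 0.76 (0.41 to 1.12) in the next decile. Over the alternatives the ratio ran from -0.10 (top 5%) to 0.37 for Ctf1 and from -0.08 (members with 5 or more Slc1a2 UMIs, -0.75 to 0.67) to 0.81 for Clcf1. Lif was counted 0 times in the Tom- sum and 12 times in the Tom+ sum, where the Tom- sum is too small to see that level. The receptor chains were abundant and close: Lifr at 1021 and 1034 CPM and Il6st at 87.3 and 103.4 CPM. Cdkn1a was at -0.13, and at 0.03 among members with 0 Slc1a2 UMIs. In the acute phase list 5 of 16 genes were above 0, with a median of -0.06.

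Members were not uniform. The split below was chosen after the values of Slc1a2 were seen and is a description only. Of Tom- members, 192 (50.0%) had no Slc1a2 UMI, 69 (18.0%) had 1 to 4 and 123 (32.03%, 27.4 to 37.0) had 5 or more. Of Tom+ members, 894 (39.0%) had none, 503 (22.0%) had 1 to 4 and 893 (39.0%, 37.0 to 41.0) had 5 or more. Depth did not rank the classes in this order, as median counts were 33715, 40392 and 32571 UMIs in Tom- and 35244, 38267 and 36906 UMIs in Tom+ members. At the portal end, in the lowest 3 deciles, 0 of 5563 Tom- and 0 of 2427 Tom+ cells had 5 or more.

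The score alone did not find all cells rich in Slc1a2. Over all hepatocytes, 639 Tom- cells (3.97%) and 1538 Tom+ cells (14.5%) had 5 or more Slc1a2 UMIs, and members were 19.2% (16.3 to 22.5) of these in the Tom- and 58.1% (55.6 to 60.5) in the Tom+ library. In the next decile 27.7% of Tom- and 20.5% of Tom+ cells had 5 or more. Counted by Slc1a2 instead of the score, the Tom+ share was thus also the higher one, by less than the ratio of 9.05 for members.

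Members with 5 or more Slc1a2 UMIs were richer in Glul: 519.2 against 59.2 CPM in Tom- and 666.2 against 77.7 CPM in Tom+ members, log2 ratios of 3.13 and 3.10. In the Tom- library 49 of 7988 genes were 2-fold higher in these cells than in those without (0.613%) and 27 were lower (0.338%), and in the Tom+ library 36 of 7970 were higher (0.452%) and 21 lower (0.263%). Of 7843 genes compared in both libraries, 27 were higher in both (0.344%) and 14 lower (0.179%). Slc1a2 was left out of these counts, while the score genes Glul and Oat were kept. Rhbg was at 75.3 against 16.4 CPM in Tom- and 88.7 against 17.7 CPM in Tom+ members. Oat was at 319.9 against 142.5 and 501.6 against 215.6 CPM. Lgr5 was at 65.3 against 30.4 and 66.3 against 29.9 CPM, and Axin2 at 264.1 against 128.9 and 237.0 against 116.7 CPM. The P450 enzyme Cyp2d9 (1.13 and 1.23) and Wisp2, a secreted matricellular protein (1.98 and 1.69), were higher as well. Wisp2 was at 6.235 CPM in Tom- and 7.682 CPM in Tom+ members with 0 Slc1a2 UMIs. It was compared only through the class in which it was high, and other genes could enter the counts in that way. Cyp2e1 differed little, by 0.29 in Tom- and 0.31 in Tom+ members.

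The genes 2-fold lower in members rich in Slc1a2 came from several functions. Igfbp2, a binding protein of insulin-like growth factors and one of the mid-lobular list, was at 255.8 CPM with and 650.4 CPM without Slc1a2 in Tom- members, and at 248.5 and 555.8 CPM in Tom+ members. Cps1 was at 584.3 against 1201 and 649.8 against 1345 CPM. The P450 enzyme Cyp2b9 and the kynurenine enzyme Kynu went the same way, with log2 ratios of -1.11 and -1.05 in Tom- and -1.23 and -1.18 in Tom+ members. Of 17 periportal genes compared in both libraries Cps1 was the one past 2-fold, and list medians were -0.36 and -0.36. Of the portal score genes, which chose the members, Hal (0.56 in Tom- and 0.28 in Tom+ members) and Sds (0.57 and 0.45) had ratios above 0 with counting intervals clear of 0 in both libraries. Those of Cyp2f2 (0.42 and 0.49) and Aldh1b1 (0.33 and 0.50) were clear of 0 in Tom+ members, while the Tom- intervals, -0.06 to 0.89 and -0.02 to 0.67, included it. Gls2 was at 0.34 (0.01 to 0.66) and 0.05 (-0.08 to 0.18), and Etnppl at 0.38 (-0.05 to 0.80) and 0.25 (0.05 to 0.44). The mid-lobular gene Hamp, the iron hormone hepcidin, was at 0.87 (0.66 to 1.09) and 0.54 (0.47 to 0.61).

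**Figure D5:**
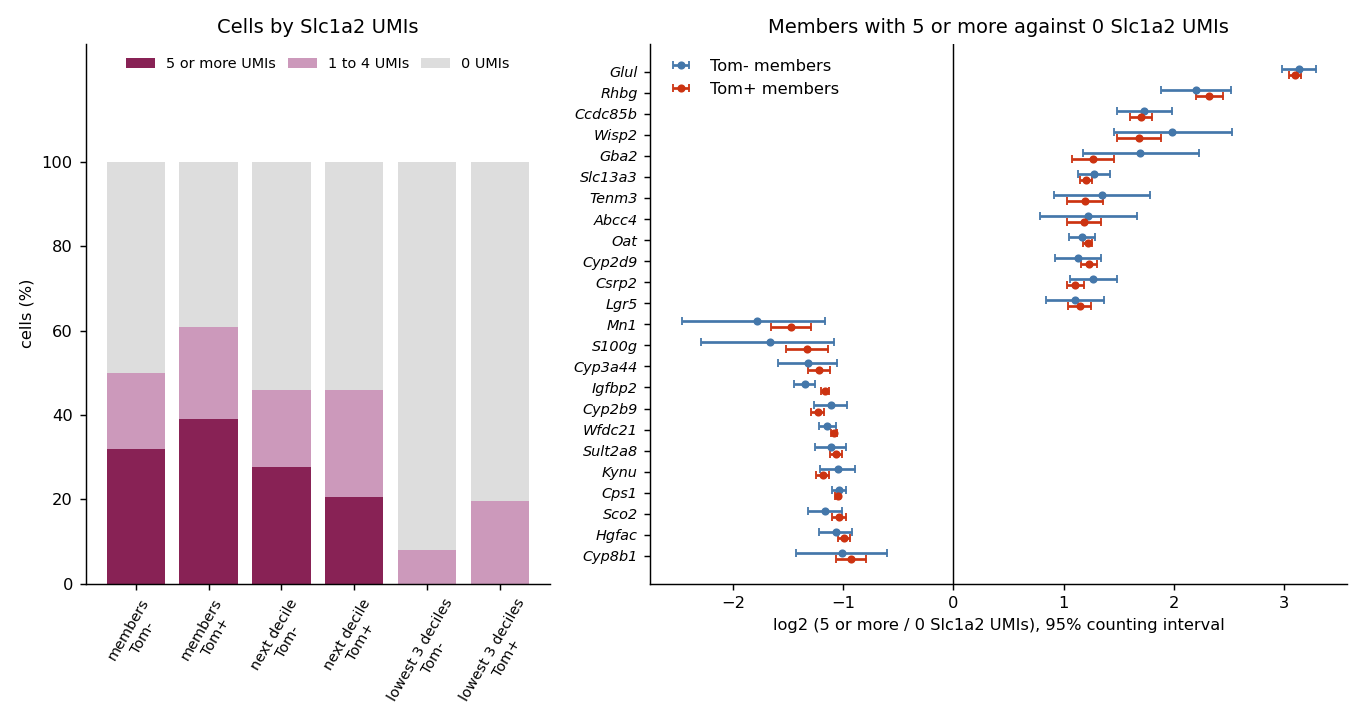
Left, percent of cells by number of Slc1a2 UMIs (0, 1 to 4, 5 or more) among members, the next decile and the lowest 3 deciles of each library; right, log2 ratio of members with 5 or more over members with 0 Slc1a2 UMIs for the largest differences, with 95% counting intervals. The genes shown were chosen for large ratios of the same direction in both libraries. Glul was at 3.13 and 3.10, and 5 or more Slc1a2 UMIs were seen in 32.03% of Tom- and 39.0% of Tom+ members.

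The fractions were also compared within these classes. Among members with 5 or more Slc1a2 UMIs 8 of 8029 genes were 2-fold higher in Tom+ cells (0.0996%) and 9 lower (0.112%). Among those with 0 the counts were 8 (0.101%) and 9 (0.114%) of 7900. As over all members, genes could be compared only through the fraction in which they were high, so these counts are a description. Log2 ratios of Tom+ over Tom- cells are given next for single genes, of which Glul and Oat chose the members. Glul had a ratio of 0.36 among members with 5 or more Slc1a2 UMIs and 0.39 among those with 0, against 0.59 over all members. Oat was at 0.65 and 0.60, against 0.82 over all. Slc1a2 itself was at 0.11 among cells with 5 or more, a class set by its own UMIs. Lgr5 was at 0.02 and -0.02, with intervals that spanned 0. Among cells with 5 or more and with 0 Slc1a2 UMIs, Gstm3 was at 0.53 and 0.18 (0.39 over all members), Cyp1a2 at 0.29 and -0.08 (0.17), Cyp2c55 at 0.23 and -0.005 (0.10) and Cyp7a1 at 0.13 and 0.38 (0.34). Ces2c was higher in the first class (1.08) than in the other (0.47). Fos was lower in both, at -1.40 and -1.95, and Dbp higher, at 2.25 and 2.04. Over all Tom- members Dbp was at 4.94 CPM, below the minimum.

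The reporter was compared over the same split. In Tom+ members it was at 998.4 CPM with 5 or more and 912.8 CPM with 0 Slc1a2 UMIs, and in Tom- members at 116.9 and 85.7 CPM. In both libraries the cells rich in Slc1a2 had the higher sum, and the per-cell ranges overlapped widely. Split by Glul instead, the reporter was at 149.5 CPM in the 33.3% of Tom- members with the highest Glul level against 71.3 CPM in an equal number with the lowest (log2 ratio 1.07, 0.88 to 1.26). In Tom+ members it was at 1087 CPM in the highest 763 against 840.7 CPM in the lowest 764 (0.37, 0.35 to 0.40). Glul entered the score, so this split draws on values that chose the members. Split at the median member score, the reporter was level in Tom+ members, at 960.8 CPM above and 953.2 CPM below (0.011, -0.008 to 0.031). In Tom- members it was at 112.5 and 86.9 CPM (0.372, 0.214 to 0.529).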

How the data were processed

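Fixed liver cells of the Tom- and Tom+ fractions were profiled with a probe-based single-cell assay (10x Flex), in which a gene is read through a few probe pairs, and levels are compared within a gene only. The authors deposited raw UMI counts per gene and cell, made with Cell Ranger 7.2.0 on mm10 with added tdTomato probes. These counts were used as deposited for 19073 features, of which 19054 identifiers were found in the GENCODE annotation. The libraries held 23220 (Tom-) and 16339 (Tom+) barcodes with 681279005 and 715333889 UMIs. After the limits on genes, UMIs and mitochondrial fraction, 20.2% and 20.8% of cells were left out for more than 2 UMIs of other-cell genes. That limit and the maximum of UMIs stood in for doublet removal, and no doublet caller was run.

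Counts were summed over cells per library. A gene was compared when either sum reached 10 CPM and both together 20 UMIs, and called at 2-fold with 0.5 UMIs added to each count. Because each group has 1 library, no p-value was computed. Intervals are exact (Clopper-Pearson for shares, Poisson and conditional binomial for counts). The scripts were tested on simulated data. Members, gene lists and tests were chosen with earlier results of these data known. Named genes were the score genes and proposed markers, the 12 highest and 12 lowest ratios of members over others at 20 CPM or more, ranked by the library nearer to 0, and the 10 highest and 10 lowest Tom+ over Tom- ratios in members. Of lists, members past 2-fold in both libraries were named, otherwise a few of highest level. tdTomato, Cdkn2a, Cdkn1a, Ctf1, Clcf1 and Lif were always named. Alternatives changed the score, cut, depth, filters and cells. Promoters came from a RefSeq table. Python 3.11.15, numpy 2.4.6, pandas 2.3.3, scipy 1.17.1 and matplotlib 3.10.9 were used.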

Additional observations from a re-analysis of the deposited data

Results flagged for a closer look

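The ratio of Tom+ over Tom- cells pointed one way in members and the other way in the next decile of the ranking for 20 of 378 named and listed genes, with counting intervals that did not span 0 on either side. The 378 genes are a chosen set, some of them named for their ratio in members. The share of such genes among all genes compared is not given here, so the count is a description only. The difference between the deciles was not tested, since each fraction has 1 library. Values below are log2 ratios in members and in the next decile.

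Higher in Tom+ members and lower in Tom+ cells of the next decile were Slc1a2 (0.49 and -0.42), Rhbg (0.34 and -0.27), Sp5 (0.26 and -0.51), Slc13a3 (0.23 and -0.16), Slc1a5 (0.19 and -0.14), Lhpp (0.17 and -0.27), Cyp1a2 (0.17 and -0.06), Cdkn1c (0.13 and -0.16), Cyp2c55 (0.10 and -0.16), Lect2 (0.093 and -0.14), Ephx1 (0.059 and -0.06), Acadvl (0.056 and -0.05) and Hsd3b7 (0.045 and -0.05). Glul, whose UMIs entered the score, was at 0.59 and -0.12. The opposite order was seen for Aspg (-0.36 and 0.13), Orm1 (-0.12 and 0.12), Scd1 (-0.08 and 0.24) and Fgg (-0.058 and 0.03). The median score of Tom+ members was 4.76 against 4.59 in Tom- members, and the share of members with 5 or more Slc1a2 UMIs was 39.0% against 32.03%, while in the next decile it was 20.5% against 27.7%. The part of the position within a decile in these ratios was not tested beyond the weighting by score, under which Slc1a2 was at 0.42 in members.

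Cxcl10 was at -2.03 in members and 0.56 in the next decile, and Rsad2 at -1.99 and 0.51. A single Tom- member held 127 of 169 Cxcl10 and 257 of 371 Rsad2 UMIs, and with the highest cell of each library left out the ratios were -0.22 and -0.47.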

How the results depend on the processing

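No paired analysis was possible because Tom- and Tom+ are 1 library each. Members were 3.79% of Tom- and 19.8% of Tom+ hepatocytes when scored on cells thinned to 5000 UMIs, 3.23% and 20.3% without Glul and Sds, 0.92% and 11.2% for the top 5%, 7.73% and 38.6% for the top 20%, and 10.0% and 10.1% when each library was ranked alone. The number of genes compared changes with the CPM minimum, the thinning and the choice of members and is not given here. The gene counts that follow are therefore not comparable with each other or with the main counts. With a minimum of 50 CPM and with no minimum, the genes higher in members numbered 72 and 460 (Tom-) and 38 and 211 (Tom+), and those lower 66 and 1156 (Tom-) and 47 and 686 (Tom+). With the mean per-cell CPM 220 were lower in Tom- members, and with the top 20% 106 were higher in Tom+ members. Genes higher in Tom+ members numbered 14 (top 5%), 16 (own ranking), 21 (thinned), 1 (50 CPM), 168 (no minimum), 2 (without the cells highest in Dbp, Per3 and Ciart, which lowers those genes by construction) and 10 (each gene without its 5 top cells). Those lower numbered 2 (score without Gulo and Aldh1b1), 1 (top 5%), 2 (top 20%), 8 (own ranking), 3 (no UMI of other-cell genes), 1 (50 CPM), 135 (no minimum), 1 (without each gene's top cell, and without its top 5), 9 (5 or more Slc1a2 UMIs) and 9 (0 Slc1a2 UMIs). The tdTomato ratio was 3.10 (top 5%), 3.20 (top 20%), 3.21 (own ranking), 3.21 (no UMI of other-cell genes), 3.22 (mean over cells), 3.21 (thinned), 3.10 (5 or more Slc1a2 UMIs) and 3.41 (0 Slc1a2 UMIs). Among genes past 2-fold the sign turned for Cxcl10 (0.58 in the top 5%, 0.36 without its 5 top cells), Rsad2 (0.90, 0.62), Cmpk2 (0.34, 0.002) and Ifit3 (0.32, 0.36). Leaving out 5 cells takes 5 of 384 Tom- but 5 of 2290 Tom+ members. The cause of the other changes was not tested. All 672 gene values of members over others kept their sign, as did 642 of 679 gene values of Tom+ over Tom-. The other turns were in 5 score genes (Cyp2e1, Gulo, Cyp2f2, Hal and Aldh1b1) and in Lgr5, Cdkn1a, Ctf1 and Clcf1. All genes behind the 672 values, and part of those behind the 679, were named for large ratios in these same cells. The kept signs are therefore a description and no support. Alternatives on single cells, on Slc1a2 classes and on shared barcodes were chosen after seeing the data.

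Limits are 1 library per fraction, an unknown number of animals, a score with no natural boundary, shared probes among close relatives, and genes under 10 CPM in the smaller Tom- sum.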
